A study of Oryza sativa with 6 samples.

Results

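Rice roots turn nitrate into ammonium with a short chain of enzymes, and 7 genes of that chain or numbered beside it were followed here in roots of wild-type (WT) rice and of the mutant line mads61-3. They are the nitrate reductase genes OsNIA1, OsNR1 and OsNIA2, the nitrite reductase gene NiR, the locus Os01g0357150 whose number follows that of NiR, the ferredoxin-NADP reductase gene FNR and the ferredoxin gene Fd. They were taken by locus identifier from a table of 36960 features, all 7 were found, and all 7 had enough counts to be tested. These genes were chosen with the difference between WT and mutant already known, so that difference is described below and no test of it is read for them.

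The study sequenced RNA from roots (Oryza sativa) of 3 WT samples and 3 samples of mads61-3, a mutant of the MADS-box transcription factor gene OsMADS61, to ask how OsMADS61 acts on nitrate transport in roots without a mycorrhizal fungus. Both groups stood in hydroponic solution with 2.5 mM nitrate, 5 seedlings to a tank of 8 L. The labels name a single mutant line and give neither the age of the plants nor the kind of mutation, nor do they say whether the replicates came from separate tanks. P-values below therefore speak to how far these samples spread, and that spread may be purely technical. Values per library are given in the order of replicates 1, 2 and 3.

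In plants, nitrate reductase works in the cytosol, where it passes electrons from NADH or NADPH to nitrate and makes nitrite. Nitrite enters the plastid, where nitrite reductase takes electrons from ferredoxin and makes ammonium. In a root plastid, which has no light reactions, ferredoxin is itself reduced by a ferredoxin-NADP reductase that spends NADPH, and the oxidative pentose phosphate pathway is the usual source of that NADPH. In many plants the genes of this chain are switched on together when nitrate arrives.

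Library totals ran from 24145708 to 34179150 counts, so 3 counts stood for 0.0875 to 0.131 CPM (counts scaled to library size after TMM, edgeR's trimmed-mean correction). OsMADS61 (Os04g0461300) was counted 12600 and 14468 times in the first pair of WT replicates, 214, 73 and 126 times in the mutants, and 67 times in the library labelled WT replicate 3. The library labelled WT replicate 3 thus stood at the level of the mutants for the gene under study, at 2.38 CPM against 6.24, 2.41 and 4.63. All directions given here count it as WT. The root markers RCc3, LSI1 and LSI2 were found in every library, with a summed FPKM (fragments scaled to feature length and library depth) of 1110 to 1580 in WT and 1937 to 3855 in the mutant, but they did not move together. LSI1 and LSI2 had positive log2 fold changes, mutant over WT (1.45 and 1.70), and RCc3 a negative one (-2.56), and edgeR called 0 of the 3, with all 3 at an unadjusted p under 0.05 and all 3 called by DESeq2. RCc3 had FPKM of 27.3, 253 and 1081 in WT against 77.8, 96.3 and 61.0 in the mutants, and so also set the library labelled WT replicate 3 apart, without which its log2 fold change was -0.86. A summed FPKM of 1.14 to 15.5 in WT and 8.57 to 99.9 in the mutant was found for 4 green tissue genes (RBCS, CAB1R, CAB2R and PsbO). RBCS and PsbO were higher in every mutant library than in every WT library (log2 fold changes 3.87 and 3.42). In CAB1R and CAB2R the groups overlapped. By edgeR 0 of the 4 were called, while DESeq2 called RBCS and PsbO higher.

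All 3 nitrate reductase genes were lower in the mutant, and OsNIA1 was almost absent there. OsNIA1 (Os02g0770800, chromosome 2), a nitrate reductase gene also known as OsNR2, had 3274, 2909 and 951 read counts in the WT libraries against 2, 3 and 0 in the mutants. The lowest WT library stood 342-fold above the highest mutant library in CPM. Group means were 97.5 ± 56.9 CPM for WT against 0.0525 ± 0.0498 for the mutant (mean ± SD, n = 3 per group, here and below). The ratio of depth-scaled totals, WT over mutant, was 1719 with an exact 95% counting interval of 736 to 5297, which covers counting error only. In RNA from whole roots, fewer cells with a transcript and less of it per cell cannot be told apart.

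The other reductase genes, OsNR1 (Os08g0468100) and OsNIA2 (Os08g0468700), carry nearby locus numbers on chromosome 8. OsNR1 had 184, 114 and 38.3 CPM in the WT libraries against 17.3, 11.1 and 22.9 CPM in the mutants. OsNIA2 had 100.6, 62.7 and 22.7 CPM in WT against 8.11, 6.27 and 9.62 CPM in the mutants. In both genes the groups did not overlap, yet the library labelled WT replicate 3 came close to the mutants, at 1.67 times the highest mutant library for OsNR1 and 2.36 times for OsNIA2. The log2 fold changes, mutant over WT, were -2.71 (SE 0.59) for OsNR1 and -2.95 (SE 0.54) for OsNIA2, against -10.70 (SE 0.92) for OsNIA1. The same fit without the library labelled WT replicate 3 gave -3.12 and -3.35 for OsNR1 and OsNIA2. How reads of these related genes were divided between them by the counting is not known, so the split between the chromosome 8 pair is uncertain.

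**Figure D1:**
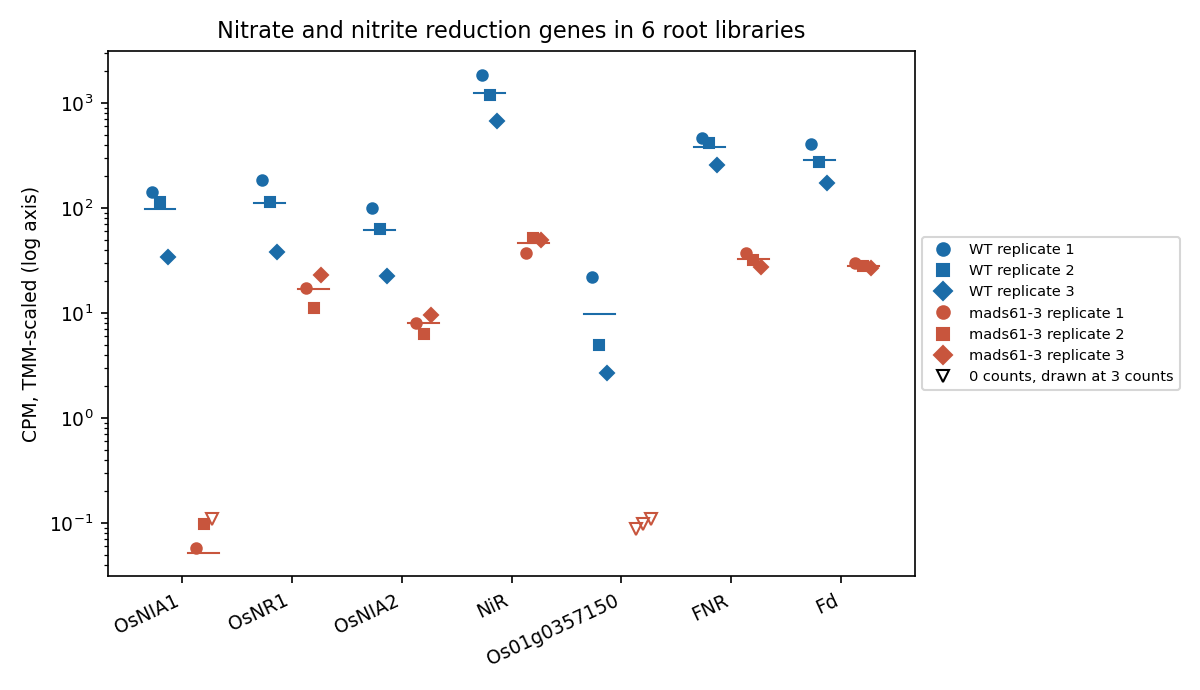
Level of the 7 genes in each library, in TMM-scaled CPM on a log axis, with WT in blue, mads61-3 in red, a marker shape per replicate and a line at each group mean. Open triangles mark libraries with 0 counts, drawn at the level of 3 counts, and in all 7 genes every mutant library lies below every library labelled WT.

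Levels of different genes can be compared only per length, for which the deposited FPKM were used. Summed over the 3 reductase genes, FPKM were 115, 95.4 and 30.6 in the WT libraries against 8.11, 6.18 and 10.2 in the mutants. The sum in the library labelled WT replicate 3 was thus above that of every mutant library but well under those of the other WT libraries. OsNIA1 made up 32.7%, 38.7% and 34.7% of the sum in the WT libraries and 0.222%, 0.365% and 0% in the mutants. Its share in the library labelled WT replicate 3 lay between those of the other WT libraries, although its FPKM there was 10.6 against 37.5 and 36.9. The mutants were left with transcripts of the chromosome 8 pair, OsNR1 at 68.6 ± 3.47% and OsNIA2 at 31.2 ± 3.29%, compared with 42.2 ± 2.02% and 22.4 ± 1.20% in WT. OsNR1 over OsNIA2 gave an FPKM ratio of 1.88 ± 0.0669 in WT against 2.22 ± 0.343 in the mutant, and here the groups overlapped.

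**Figure D2:**
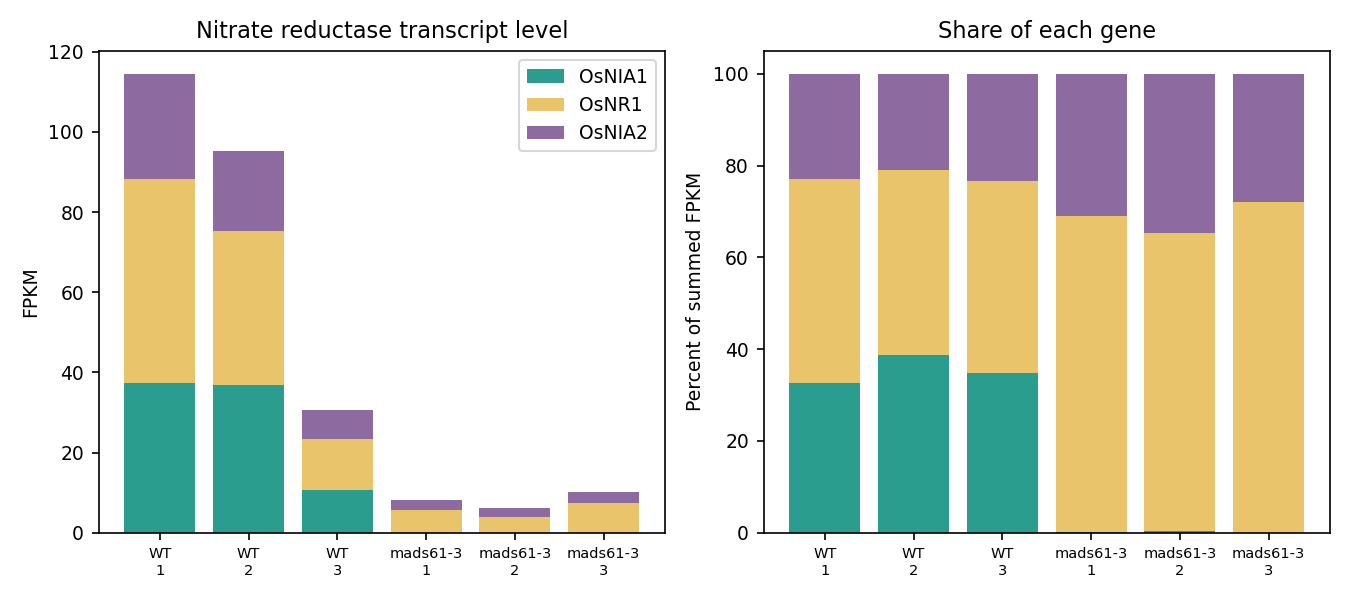
FPKM of the 3 nitrate reductase genes stacked by library (left) and the percent each gene contributes to their sum (right). OsNIA1 makes 32.7% to 38.7% of the sum in the WT libraries and at most 0.365% in the mutants.

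NiR (Os01g0357100, chromosome 1), whose plastid enzyme makes ammonium from nitrite, was the most abundant gene of the chain in WT roots. Its FPKM were 678, 531 and 294 in the WT libraries against 14.6, 22.5 and 18.7 in the mutants. By mean FPKM it ranked 81 of 36960 features in WT and 7209 in the mutant. In CPM it had 1859, 1199.7 and 672 in WT against 37.6, 52.1 and 49.9 in the mutants, and its log2 fold change was -4.74 (SE 0.48). The groups lay far apart, with the lowest WT library 12.9 times the highest mutant library. Within groups the highest library was 2.77 times the lowest in WT and 1.39 times in the mutant.

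Os01g0357150, which the table lists without a gene name, is numbered directly after NiR. It had 503, 124 and 75 counts in the WT libraries against 0 in each mutant library. With 3 counts per library as the limit that a count of 0 allows, its mean of 9.87 CPM in WT was at least 99.8-fold higher than in the mutant, and at least 38.3-fold higher without WT replicate 1, which held most of the counts. Per 1000 NiR counts it had 11.8 counts in WT replicate 1 and 4.09 and 3.97 in the other WT libraries. In the mutants, with 1289 to 1577 NiR counts, a count of 0 allows at most 1.90 to 2.33 per 1000. The locus was therefore low in the mutant also relative to NiR, at a depth that can show it. Whether the locus overlaps NiR was not determined, and reads of overlapping or antisense features cannot be told apart where the use of strand in counting is not given.

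The genes of electron supply were lower along with NiR, by smaller ratios. FNR (Os03g0784700, chromosome 3), a ferredoxin-NADP reductase gene, had 465, 413 and 256 CPM in the WT libraries against 37.6, 32.1 and 27.6 CPM in the mutants. Its log2 fold change was -3.54 (SE 0.32). Fd (Os05g0443500, chromosome 5), a ferredoxin gene, had 407, 277 and 173 CPM in WT against 30.0, 27.8 and 27.0 CPM in the mutants, with a log2 fold change of -3.34 (SE 0.36). The mutant libraries were close to each other for Fd, the highest being 1.11 times the lowest, while the WT libraries spread 2.36-fold. The lowest WT library stood 6.80 times above the highest mutant library for FNR and 5.76 times for Fd.

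Per length, Fd and FNR kept a similar balance in both groups, while NiR did not. The FPKM ratio of Fd to FNR was 0.774 ± 0.122 in WT against 0.931 ± 0.0949 in the mutant, and the groups overlapped. The ratio of NiR to Fd was 2.79, 2.62 and 2.37 in the WT libraries against 0.690, 1.04 and 1.02 in the mutants. The ratio of NiR to FNR was 2.55, 1.83 and 1.68 in WT against 0.584, 0.945 and 1.05 in the mutants. In both of these ratios the groups did not overlap, so NiR transcripts outnumbered those of Fd and FNR in every WT library and were about equal to or below them in the mutants. NiR also stood at 5.92, 5.56 and 9.61 times the summed reductase FPKM in the WT libraries and at 1.81, 3.64 and 1.83 times in the mutants.

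**Figure D3:**
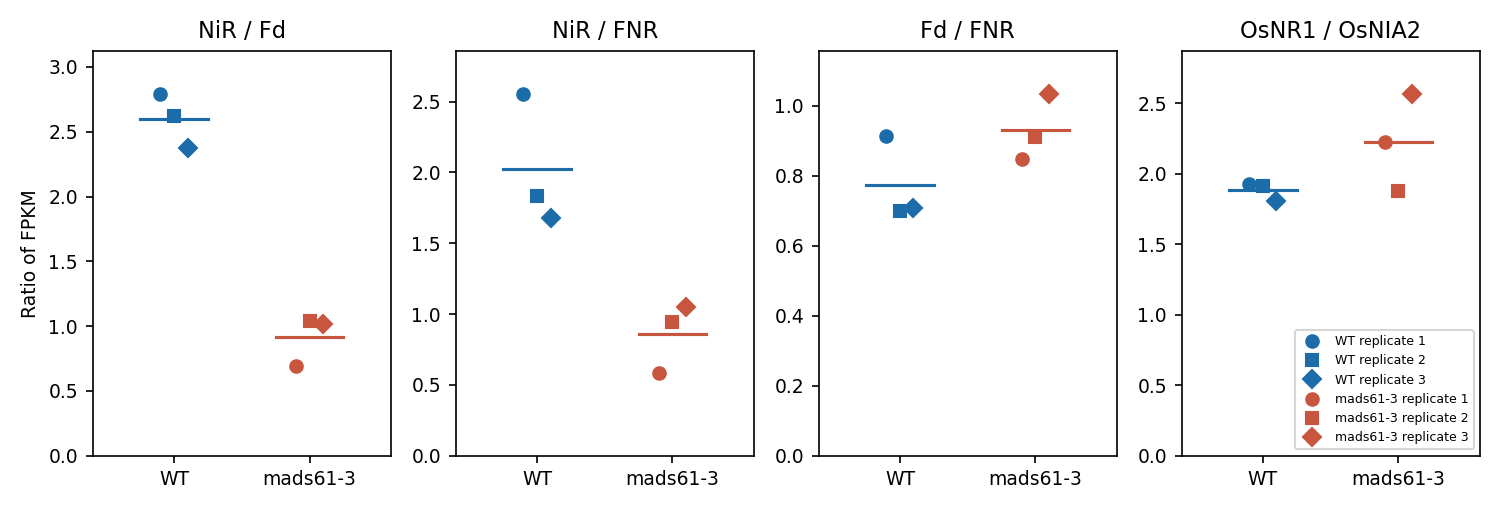
Ratios of deposited FPKM between pairs of genes in each library, with WT in blue, mads61-3 in red, a marker shape per replicate and a line at the group mean. The groups are apart for NiR over Fd and NiR over FNR and overlap for Fd over FNR and OsNR1 over OsNIA2.

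Within WT the 7 genes spread in the same order. In CPM WT replicate 1 was the highest and the library labelled WT replicate 3 the lowest for all 7, an order found in 32.5% of the 25531 tested features. By FPKM the order held for 6, the exception being FNR at 289 in WT replicate 2 and 266 in WT replicate 1. In the library labelled WT replicate 3 the nitrate reductase genes were at 25.6% to 27.8% of the mean of WT replicates 1 and 2 in CPM, NiR at 43.9%, Fd at 50.5%, FNR at 58.3% and Os01g0357150 at 19.8%. OsMADS61 was at 0.424% of that mean in the same library. That library had NiR at 14.4 times its mutant mean, FNR at 7.89, Fd at 6.11 and OsNIA1 at 645 times. For OsNR1 and OsNIA2 it was 2.24 and 2.83 times. These ratios rest on a single library, and what sets it apart was not tested.

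Across the whole table, edgeR's quasi-likelihood test called 0.924% of 25531 features lower in the mutant at a Benjamini-Hochberg adjusted p under 0.05, and 0.325% higher. OsNIA1, NiR, FNR and Fd were among those called lower, 4 of the 7, and 0 of the 7 were called higher. Every mutant library lay below every library labelled WT for 7 of 7, as it did for 11.3% of tested features. Because the genes were picked on this contrast, nothing is read from these counts. Without the library labelled WT replicate 3 all 7 were called lower, beside 2.02% of features. Without mutant replicate 1, 2 or 3, edgeR called 0 of the 7, beside 0, 14 and 0 features of the whole table. DESeq2, run on all 6 libraries, called all 7 lower, beside 4.75% of features. When each library was left out in turn, the log2 fold change of NiR ranged from -5.04 to -4.33 and that of FNR from -3.76 to -3.37. That of OsNIA1, which rests on 5 mutant counts, ranged from -11.37 (without mutant replicate 2) to -10.21 (without mutant replicate 3).

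**Figure D4:**
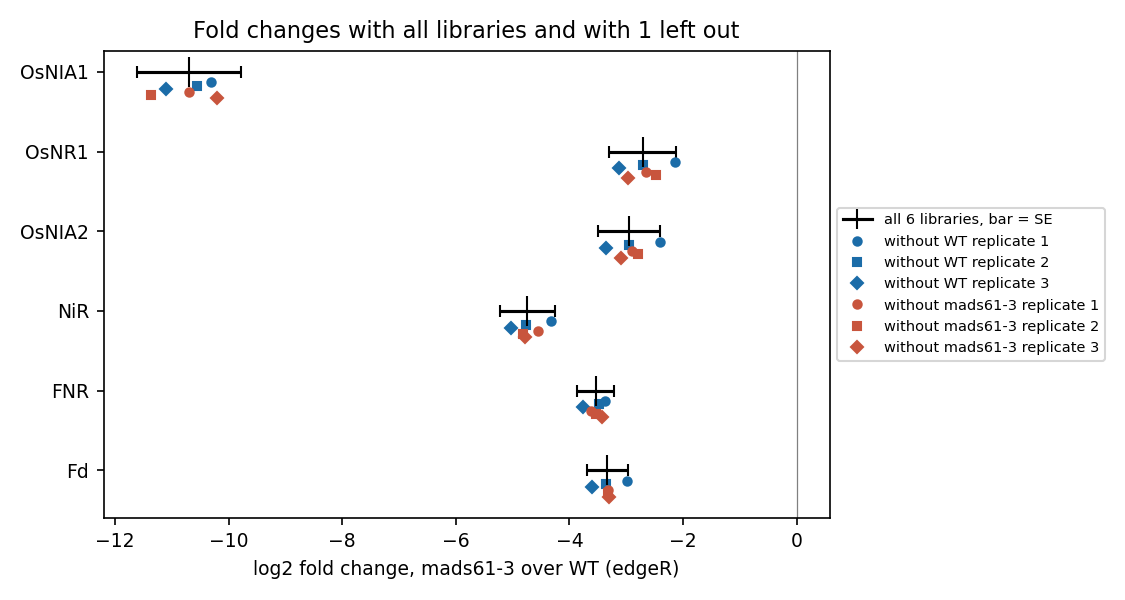
Log2 fold change of mads61-3 over WT from edgeR for 6 genes, as a black tick with its SE for all 6 libraries and as coloured markers when 1 library is left out. The markers stay within about 1 SE of the black tick, and OsNIA1 lies far below the other genes.

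Other genes around the chain were taken from 5 lists by their known roles, with earlier results of these data known, and the genes described were picked from the lists by their calls or levels, so the p-values given are not independent of that choice. Of the oxidative pentose phosphate dehydrogenases, which make NADPH, 2 of 4 tested genes fell in the mutant and 0 rose. Os6PGDH2 (Os11g0484500, chromosome 11), a gene for the plastid form of 6-phosphogluconate dehydrogenase, had 293, 273 and 183 CPM in the WT libraries against 42.9, 44.0 and 36.6 CPM in the mutants. Its lowest WT library stood 4.17 times above its highest mutant library (log2 fold change -2.60, SE 0.26, edgeR adjusted p = 0.0148). OsG6PDH3 (Os07g0406300, chromosome 7), a glucose-6-phosphate dehydrogenase gene, had 1044, 722 and 386 CPM in WT against 113, 94.4 and 129.8 CPM in the mutants (log2 fold change -2.67, SE 0.42, edgeR adjusted p = 0.0416). For this gene too the groups did not overlap, and the library labelled WT replicate 3 stood lowest of the WT libraries, as for the 7 genes of nitrate reduction. The other genes of the list did not pass, OsG6PDH1 at 92.0 ± 21.1 and 113.8 ± 38.3 CPM (log2 fold change 0.31, SE 0.32) and Os6PGDH1, the cytosolic form, at 243 ± 129 and 214 ± 52.6 CPM (log2 fold change -0.19, SE 0.41). The median log2 fold change of the 4 was -1.39, against -0.04 over all tested features.

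The calls of Os6PGDH2 and OsG6PDH3 were lost when any 1 mutant library was left out. In those fits, without mutant replicate 1, 2 or 3, edgeR called 0, 14 and 0 features of the whole table. Without mutant replicate 1, 2 or 3 the edgeR adjusted p was 0.113, 0.0548 and 0.117 for Os6PGDH2 and 0.197, 0.118 and 0.197 for OsG6PDH3, and that of OsG6PDH3 was 0.1005 without WT replicate 2. With the library labelled WT replicate 3 left out they were 0.00746 and 0.0122. Over all alternatives the adjusted p ran from 1.44e-19 (DESeq2) to 0.117 for Os6PGDH2 and from 3.93e-09 (DESeq2) to 0.197 for OsG6PDH3. The table names 3 further genes of the family, OsG6PDH2, OsG6PDH4 and OsG6PDH5, under other numbers than the list had, and they were added after the data were seen. Their log2 fold changes of 0.00, 0.65 and 0.11 did not pass, so that 2 of 7 fell and the median was 0.00.

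**Figure D5:**
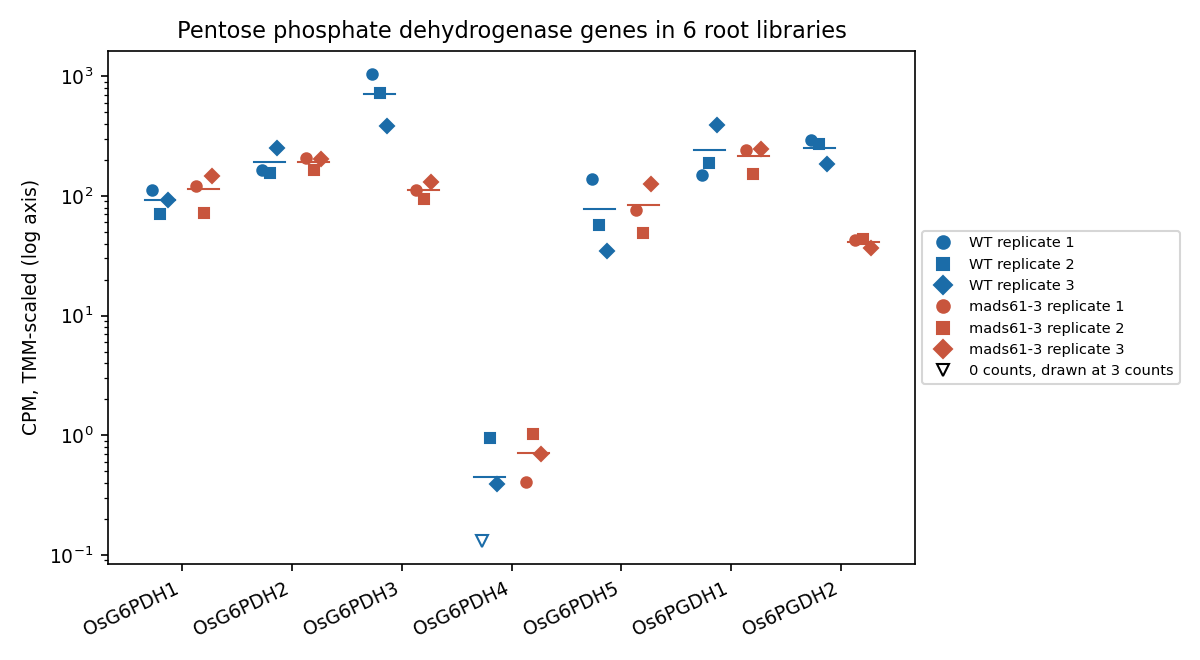
Level of 7 pentose phosphate dehydrogenase genes in each library, in TMM-scaled CPM on a log axis, with WT in blue, mads61-3 in red and a line at each group mean. OsG6PDH3 and Os6PGDH2 have every mutant library below every WT library, and the groups overlap in the other 5.

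Other ferredoxin and ferredoxin-NADP reductase genes were mostly low, and edgeR called none of those named here, listed or added. Of the list 2 genes could be matched, and 0 were called in either direction by edgeR, while 1 was higher (unadjusted p under 0.05) and 1 was called higher by DESeq2. Fd1 (Os08g0104600, chromosome 8), a ferredoxin gene best known from leaves, had 6, 33 and 0 counts in the WT libraries against 85, 630 and 343 in the mutants (log2 fold change 4.51, SE 1.33, edgeR adjusted p = 0.159). Its mutant libraries stood in the order of the summed green tissue genes, which had FPKM of 8.57, 99.9 and 42.4 in the mutants, and the part of such tissue in the difference was not tested. OsFdC2 (Os03g0685000), the other matched gene, had 0.237 ± 0.206 and 0.886 ± 0.798 CPM. Taken by symbol after the data were seen, the leaf-type reductase genes OsLFNR1 and OsLFNR2 had 0.0474 ± 0.0822 and 1.05 ± 0.586 CPM in WT. In the mutant they had 2.93 ± 1.99 and 3.997 ± 2.86 CPM, with mutant replicate 2 highest in both. Their log2 fold changes were 5.72 (SE 1.20, edgeR adjusted p = 0.0763) and 1.93 (SE 0.74, edgeR adjusted p = 0.264). OsFd3 (Os03g0835900), a ferredoxin gene found in the same way, had 156, 192 and 186 CPM in the WT libraries against 118.7, 91.7 and 101.1 CPM in the mutants (log2 fold change -0.78, SE 0.21, edgeR adjusted p = 0.138). By FPKM OsFd3 stood level with Fd in WT, at 191 ± 39.9 against 190 ± 60.6, and above it in the mutant, at 117 ± 12.7 against 20.4 ± 1.797.

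The 14-3-3 proteins, which in plants bind phosphorylated nitrate reductase and hold it inactive, were represented by 7 tested genes. By edgeR 0 of them were called, with 0 at an unadjusted p under 0.05, and DESeq2 and limma-voom also called 0. Their log2 fold changes ran from -0.67 (GF14C) to 0.55 (GF14h), with a median of -0.15. GF14F and GF14B had the highest mean CPM over the 6 libraries, a measure not corrected for gene length. GF14F stood at 567 ± 276 CPM in WT against 509 ± 18.5 in the mutant (log2 fold change -0.15, SE 0.41) and GF14B at 449 ± 58.8 and 442 ± 79.6 (log2 fold change -0.02, SE 0.27). GF14C, above GF14B in WT, stood at 489.9 ± 214 and 309 ± 39.0 CPM (SE of its log2 fold change 0.36). Its groups overlapped. GF14A and GF14D had every mutant library below every WT library, an order found for 11.3% of tested features. GF14h had every mutant library above every WT library, as had 11.4% of tested features. Of the lists on the molybdenum cofactor and on siroheme, the cofactors of nitrate and nitrite reductase, 0 genes could be matched to a deposited symbol, and they are not analysed here.

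Among 6857 other named genes with at least 1 CPM on average, OsNIA1 had the highest Pearson's r with NiR over the 6 libraries. It was 0.996 in log2(CPM + 0.5). In the mutants OsNIA1 had 0.0583, 0.0990 and 0 CPM, so the added 0.5 largely sets its values there. Fd (r = 0.995) ranked 3 and FNR (r = 0.991) ranked 9, while OsNIA2 (r = 0.956) ranked 136 and OsNR1 (r = 0.925) ranked 251. Outside the 7 genes the closest were OsEXO70X7 (r = 0.996), OsERF_133 and Os11gRGA5 (both r = 0.995), Os6PGDH2 (r = 0.994) and OsCBSIMPDH1 (r = 0.991). Of these, Os11gRGA5 had 62.3 ± 28.8 CPM in WT against 0.0402 ± 0.0442 in the mutant, and OsCBSIMPDH1 82.2 ± 5.56 and 50.9 ± 3.60. These values describe 6 points that share 2 group means, so any gene with a large and even difference between the groups scores high.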

How the data were processed

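Whole-number read counts per feature, not normalised, were deposited for 6 libraries. The deposited FPKM table holds values that the authors scaled to feature length and library depth. Per the submitters' processing notes, the tools were HISAT2 2.0.5, SAMtools 0.1.18, StringTie 1.3.3, CASAVA 1.8.2, Picard 1.41 and FastQC 0.11.9. Those notes name GRCh38, which is human, while all locus identifiers are of rice. What rice build, annotation and counter were used is not given in the sources used here. No coordinates or sequences are therefore printed, and the chromosome is that in the locus identifier. Mutant columns numbered 1 to 3 were read as replicates 1 to 3 of mads61-3.

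Under R 4.3.3, edgeR 4.0.16 gave the two-sided quasi-likelihood test (TMM, robust, minimum count 10, minimum total 15, group as the only term), with Benjamini-Hochberg adjustment over 25531 features and a threshold of 0.05. Its script was tested on simulated data. SEs are the size of the log2 fold change over the square root of F. DESeq2 1.42.0, limma 3.58.1 (voom, and log2 of FPKM plus 1 or plus 0.1), RLE scaling, no low-count filter, a replicate block and leaving out each library were the alternatives. FPKM ratios and shares were computed per library. An exact test of single values, 3 against 3, was not used.

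The members and lists were chosen with earlier results of these data known. The rule named the 7 genes, OsMADS61, from each list up to 3 called genes (or, with none called, the 2 most abundant), and the 5 named genes most like NiR. A list entry, written from memory, was used only where the deposited symbol at its locus was one of its names. Genes added by symbol are marked as chosen after the data were seen. The list genes OsG6PDH1, Os6PGDH1, GF14A, GF14C, GF14D and GF14h are given beyond the rule. A search of promoters was planned and not run. Counting intervals and limits cover counting error only, and leave out variation between the libraries of a group. Duplicate reads of 1 molecule could not be removed by molecular identifiers, and they are not allowed for either.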

Additional observations from a re-analysis of the deposited data

How the results depend on the processing

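The log2 fold changes of 6 of the 7 genes were followed over the alternatives, and all kept their sign under every alternative run. Os01g0357150, at 0 counts in the mutants, was followed by its least fold instead. That of OsNIA1 depended on the pseudocount, at -4.66 on log2(FPKM + 1) and -7.77 on log2(FPKM + 0.1), since it is near 0 in the mutant. Leaving out each library gave -11.37 to -10.21 for OsNIA1, -3.12 to -2.15 for OsNR1, -3.35 to -2.41 for OsNIA2, -5.04 to -4.33 for NiR, -3.76 to -3.37 for FNR and -3.60 to -2.99 for Fd, 38.3 to 136 for the least fold at Os01g0357150, and shares of OsNIA1 of 33.7% to 36.7% in WT and 0.111% to 0.294% in the mutant. The number of the 7 genes called lower, 4 by edgeR, was 7 by DESeq2 and 0 to 7 with 1 library left out. Of all features, edgeR called 319 over the whole table, against 2481 by DESeq2, 481 and 559 by limma on log2(FPKM + 1) and log2(FPKM + 0.1), and 0 to 724 with 1 library left out. The count was 724 when the library labelled WT replicate 3 was left out, 663 without WT replicate 1, 107 without WT replicate 2 and 14 without mutant replicate 2. The counts of 0 came without mutant replicate 1 or 3, where edgeR had 2641 and 2608 features at an unadjusted p under 0.05 and no other tool was run. In the related lists 2 genes fell and 0 rose by edgeR, 1 rose by DESeq2 (Fd1), and 0 to 2 fell with 1 library left out. The cause of these differences in counts was not tested.

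The labels do not say whether replicate numbers pair the libraries. Deviations from the group means of same-numbered libraries correlated across genes at 0.138, 0.246 and -0.219. WT replicate 1 correlated best with mutant replicate 3 (0.306). Deviations from a mean of 3 libraries are tied to each other within a group, so these values cannot decide whether libraries were paired. With the replicate number as a block, edgeR called 81 features, 3 of the 7 genes (OsNIA1, FNR and Fd) and 1 gene of the related lists, Os6PGDH2 (adjusted p = 0.0477).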

Other observations

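Likeness to NiR was also taken within the groups, for the genes of the chain and for the other named genes. After the group means were subtracted, log2(CPM + 0.5) of NiR correlated over the 6 libraries at r = 0.901 with Fd and 0.896 with OsNIA1. It correlated at 0.887 with OsNIA2, 0.824 with OsNR1 and 0.709 with FNR. In this order the genes ranked 466, 494, 545, 980 and 1629 among 6857 named genes. The closest were OsPP2C01 (r = 0.999), OsS40-7 and OsCIPK10 (both r = 0.998), CHR702 (r = 0.997) and OsSub51 (r = 0.996). Of these OsCIPK10, named for a CBL-interacting protein kinase, had 344 ± 164 CPM in WT against 93.5 ± 16.3 in the mutant (mean ± SD of 3 libraries), and OsPP2C01 13.2 ± 7.31 and 16.9 ± 3.26. These correlations rest on 4 free deviations, share library depth and are given as descriptions. The closest genes were picked as the highest of 6857, which alone gives a high r. Their values therefore cannot be set against those of the chain, whose genes were fixed beforehand.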
